A study of Mus musculus with 8 samples.

Results

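The genes described here encode the core proteins and best-known regulators of pre-mRNA splicing. They are the mouse genes whose symbols begin with Hnrnp, Srsf, Snrp, Sf3a, Sf3b or Lsm followed by the letters or number of a family member, and that both deposited tables hold. The rule found 64 genes of the 11265 that the tables share, namely 20 hnRNP genes, 10 SR protein genes (Srsf), 12 genes of Sm and U snRNP proteins (Snrp), 9 genes of the SF3a and SF3b complexes and 13 LSm genes. They were chosen by symbol and selected on being listed in both tables, which is a matter of measured level. Srsf12 is left out, since only the FPKM table holds it; it had 0.740 and 0.875 FPKM in KO-labelled libraries, against 0.526 and 1.03 FPKM in WT-labelled ones. The copies Hnrnpa1l2-ps and Snrpert are left out too, since only the table of Ttex cells holds them.

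Polyadenylated RNA was measured in 8 libraries of OT-I cells, CD8+ T cells with a transgenic receptor for an ovalbumin peptide, sorted from tumors of B16-OVA, a mouse melanoma line that makes ovalbumin. Naive OT-I cells of the genotype Zbtb32-/- (labelled Zbtb32 knockout, here KO) and WT ones were given as a mixture to B6 recipients, which received a subcutaneous B16-OVA tumor 1 day later, and the cells were sorted from it 30 days after implantation. The 4 groups, of 2 replicates each, were KO-labelled and WT-labelled OT-I cells sorted as a whole, here called bulk OT-I cells (all sorted OT-I cells in the plots), and KO-labelled and WT-labelled cells of the Tim-3+ subset that the labels call Ttex. The labels give neither the age of the mice nor the animals behind each replicate, so p-values measure the spread between these libraries, which may be technical. Both genotypes carried the OT-I receptor and met the same tumors, and the recipients were B6 mice, a strain with its own lymphocytes.

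Splicing begins when the U1 and U2 snRNPs recognise the ends and the branch point of an intron. Each of U1, U2, U4 and U5 carries a ring of Sm proteins, U6 carries the related LSm ring, and SF3a and SF3b are the parts of U2 that hold the branch point. SR proteins mostly promote the use of exons they bind, hnRNP proteins often oppose it, and both also act in mRNA export, stability and translation. T cells change splicing as they are activated, and HNRNPLL and HNRNPL are known for switching the exons of Ptprc, the gene of CD45.

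Depth, as whole reads recovered from the deposited values, was 18562369 to 21047613 reads in bulk OT-I libraries and 51635441 to 59177948 in Ttex libraries. Zbtb32 RNA itself in bulk OT-I cells was at 94.9 and 73.0 FPKM in KO-labelled libraries, against 79.8 and 87.1 FPKM in WT-labelled ones (log2 fold change -0.00, limma adjusted p = 0.994). In the Ttex table KO-labelled libraries had 6822 and 5715 normalized counts of it and WT-labelled libraries 3976 and 3951 (log2 fold change 0.66, limma adjusted p = 0.183). KO-labelled libraries thus had no less of it. The labels do not say which exons the deletion took, so a gene-level value cannot check them, and each direction given here is that of libraries labelled KO against libraries labelled WT. The authors' FPKM divisor stood at 1.12 and 1.25 of the recovered reads in KO-labelled and at 0.962 and 0.951 in WT-labelled bulk OT-I libraries, so the deposited scale moves with the label there. The T cell markers Cd3e, Cd3d, Cd3g, Cd8a and Cd8b1 were present in all 8 libraries. They moved with the label too, as their list summed to 1302 to 1543 FPKM under the KO label and 1871 to 2104 FPKM under the WT label in bulk OT-I cells, with 2 of 5 called lower (median log2 fold change -0.49) and 0 after centring each library on its median gene. In Ttex cells the list, there of 6 genes, summed to 365798 to 428990 normalized counts under the KO label and 319995 to 353455 under the WT label, with 0 called (median 0.10). Other cell types' markers moved along with genotype. The list for macrophages, monocytes and dendritic cells summed in bulk OT-I cells to 252 to 277 FPKM under the KO label and 661 to 702 FPKM under the WT label, with 14 of 16 tested members lower, and to 81239 to 90805 against 37152 to 39523 normalized counts in Ttex cells. Melanoma markers summed to 20.5 to 22.4 against 12.7 to 16.2 FPKM and to 58398 to 61106 against 27601 to 28090 normalized counts, and red blood cell markers to 15.4 to 22.3 against 8.17 to 10.3 FPKM and to 10643 to 17857 against 2138 to 3412 normalized counts, KO-labelled first in each pair. No marker that a table holds was at 0 in all of its libraries, but some listed markers are absent from a table. The Ttex table holds 0 of 4 neutrophil, 1 of 2 NK cell and 3 of 5 endothelial and fibroblast markers. The table of bulk OT-I cells holds 2 of 4 neutrophil markers. The other lists (B cell, NK cell, neutrophil, endothelial and fibroblast, CD4 and regulatory T cell) summed to at most 9.98 FPKM under the KO label and 8.56 FPKM under the WT label in bulk OT-I cells each. The CD4 and regulatory T cell list among them was at 0.620 to 0.770 FPKM under the KO label and 3.16 to 3.37 FPKM under the WT label. In Ttex cells it was at 380 to 516 against 236 to 256 normalized counts, KO-labelled first. NK cell, neutrophil, and endothelial and fibroblast sums in bulk OT-I cells were higher under the KO label, and B cell sums overlapped. The part of all these markers in the results below was not tested. In libraries made from many cells, fewer cells of a type and less RNA per cell cannot be told apart.

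A larger share of the splicing genes than of all tested genes was called lower in bulk OT-I cells in the libraries labelled KO, with the SF3 family, at 33.3%, closest to the whole table. Of the 61 members that passed the filter of a mean of at least 1 FPKM, 36 were called lower and 0 higher (limma-trend on log2(FPKM + 1), adjusted p under 0.05 over all 9574 tested genes), with 30.4% of the whole table called lower and 2.45% higher. At an unadjusted p under 0.05, limma found 39 members lower and 1 higher, with 42.0% of all tested genes at such a p in either direction. edgeR's quasi-likelihood test on recovered reads called 35 lower and 1 higher, where it called 15.8% and 11.8% of all genes. DESeq2 on the same reads called 34 lower and 0 higher, where it called 16% and 5.12% of all genes. The authors' deposited table calls 33 members lower, where it calls 15.4% of its genes with an adjusted p lower, and 32 of the 33 were among the 36. The median log2 fold change of the members was -0.57, and that of all tested genes -0.24. Since the whole table sits below 0, the libraries were also centred on the median gene: 17 members were then called lower and 2 higher, Sf3b3 and Srsf4, where 11.9% and 10.7% of all tested genes were.

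The count rested in part on single libraries. It was 13 without WT-labelled replicate 1, 21 without WT-labelled replicate 2, 21 without KO-labelled replicate 2 and 34 without KO-labelled replicate 1, with 15.7%, 19.1%, 18.6% and 27.2% of all tested genes called lower in those fits. In each of those 4 fits the share of SF3 genes called lower lay below that of all tested genes. The Snrp share did so without WT-labelled replicate 1. Of the 36 genes, 12 kept the call in all 4 fits, and 3 (Hnrnpdl, Srsf3 and Srsf10) kept it in 0. Values of the genotypes did not overlap in 53 of the 64 members with KO-labelled libraries below and in 1, Sf3b3, with them above, against 56.6% and 9.43% of all tested genes. The members at the low end were Hnrnpab, Srsf1, Hnrnpu, Lsm14a, Hnrnpd, Srsf9, Hnrnpa0, Lsm5 and Hnrnpul2, the 9 that were lower by 1 log2 unit or more. Fold changes are on the log2(FPKM + 1) scale, which understates those of low genes. limma's estimate of prior degrees of freedom was infinite in this table, so that a gene's SE is that of genes at its level and not its own spread between replicates.

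Set side by side, the 5 families had lower calls in 10 of 20 tested hnRNP, 6 of 10 SR protein, 8 of 11 Snrp, 3 of 9 SF3 and 9 of 11 LSm genes. Centring on the median gene left 9, 2, 2, 1 and 3 of them, while the share of all tested genes called lower went from 30.4% to 11.9%. The hnRNP family thus kept most of its calls, and calls in the other families fell as they did over the whole table. Summed over a family, the ratio of KO-labelled to WT-labelled FPKM was 0.780 for hnRNP, 0.714 for SR protein, 0.660 for Snrp, 0.906 for SF3 and 0.640 for LSm genes. LSm genes together were at 298 and 336 FPKM in KO-labelled libraries, against 540 and 449.9 FPKM in WT-labelled ones, whereas SF3 genes together were at 444 and 409 FPKM in KO-labelled libraries, against 453 and 488 FPKM in WT-labelled ones. KO-labelled sums lay below WT-labelled ones without overlap in all 5 families. No sum over all genes was taken beside them. Taken singly, 56.6% of all tested genes had KO-labelled values below WT-labelled ones without overlap. The authors' FPKM divisor, relative to recovered reads, was 1.12 and 1.25 in KO-labelled libraries, against 0.962 and 0.951 in WT-labelled ones. Its part in these sums was not tested. Differences between families were not tested.

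**Figure D1:**
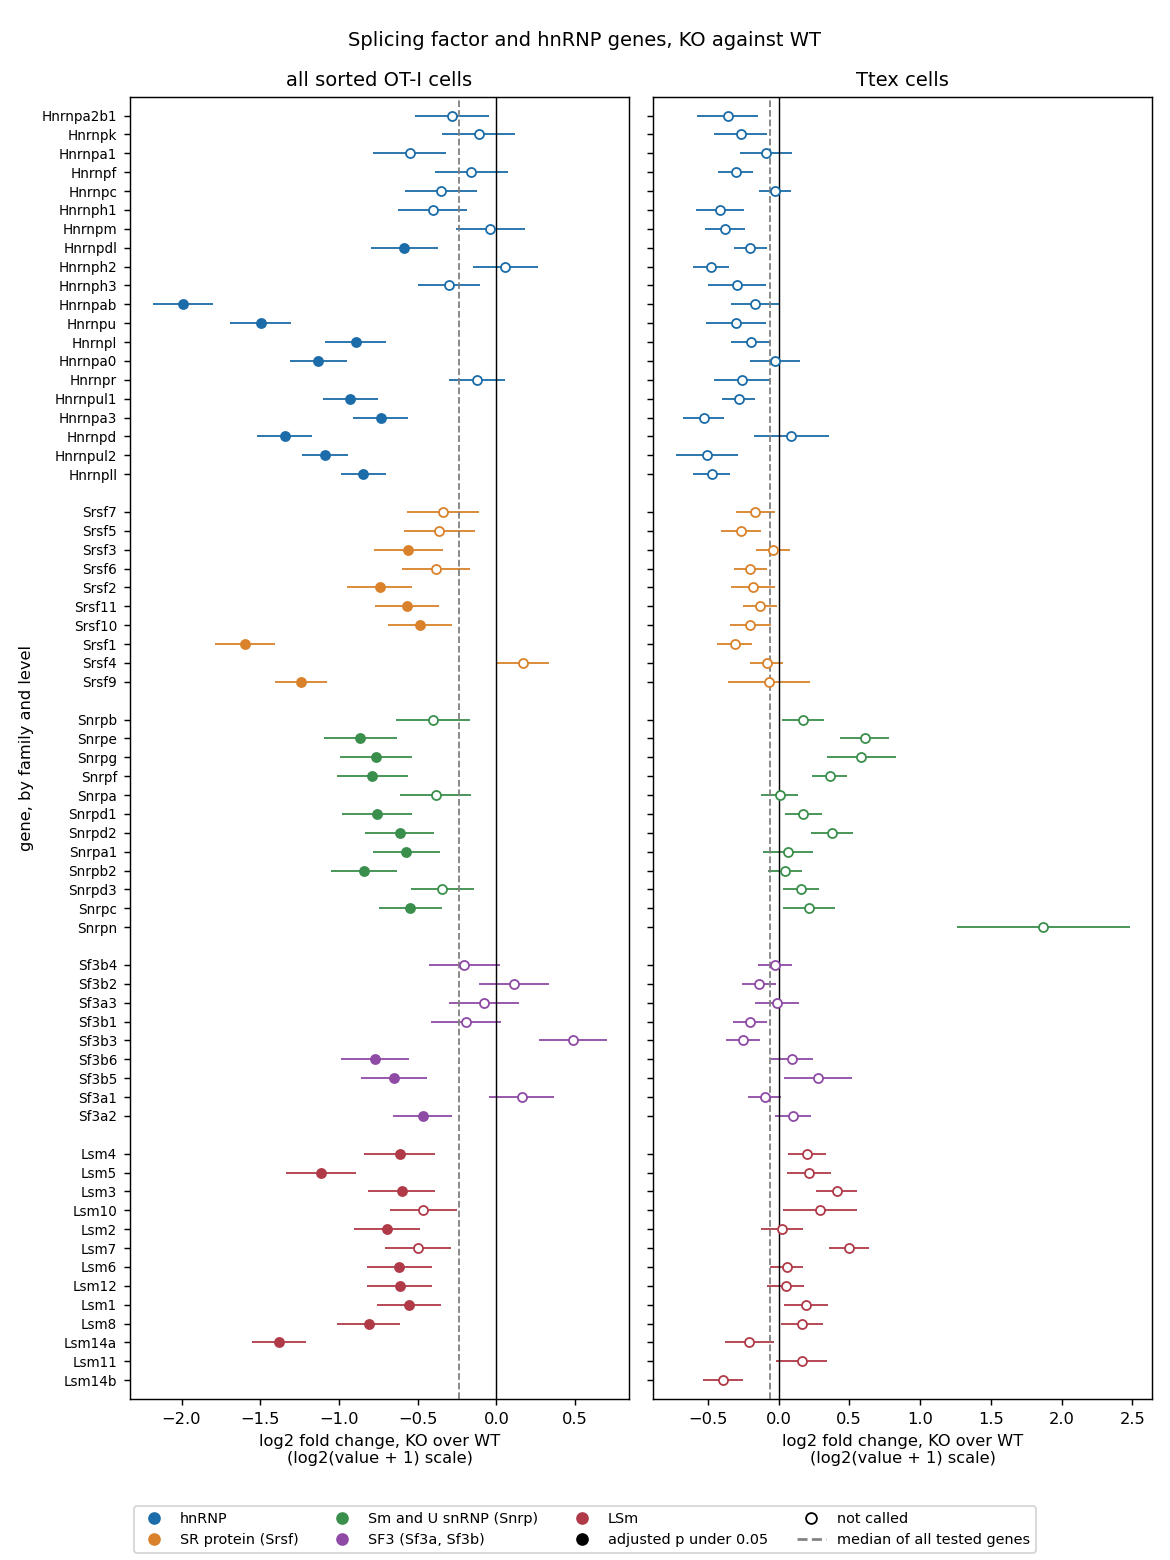
Log2 fold changes, KO-labelled over WT-labelled, of the 61 members tested in bulk OT-I cells (left) and the 64 in Ttex cells (right), ordered within each family by mean FPKM. Points are limma estimates with bars of 1 SE, filled where the adjusted p is under 0.05; the dashed line is the median of all tested genes, at -0.24 and -0.06. The filled points all lie left of 0 in the left panel, and in the right panel no point is filled while every Snrp gene lies right of 0.

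Among the 20 hnRNP genes, 10 were called lower, with a median log2 fold change of -0.57 and a range of -1.99 to 0.06. Hnrnpab, an A/B-type protein that binds single-stranded nucleic acid, gave the largest change of all members. It was at 7.07 and 6.17 FPKM in the KO-labelled libraries, against 31.3 and 27.3 FPKM in the WT-labelled ones (log2 fold change -1.99, SE 0.19, limma adjusted p = 4.35e-22). The KO-labelled pair lay far below the WT-labelled pair, and the call held in each fit that left out a library. Hnrnpu, the nuclear scaffold protein also called SAF-A, was at 8.51 and 8.33 FPKM in the KO-labelled libraries, against 27.03 and 24.2 FPKM in the WT-labelled ones (log2 fold change -1.50, SE 0.19, limma adjusted p = 9.08e-13). Its relatives Hnrnpul1 and Hnrnpul2 were called lower too (-0.93 and -1.09), so that all 3 members of the U group were. Hnrnpd, known as AUF1, which binds AU-rich elements and hastens mRNA decay, was at 3.33 and 3.18 FPKM in the KO-labelled libraries, against 10.6 and 9.05 FPKM in the WT-labelled ones (log2 fold change -1.35, SE 0.17, limma adjusted p = 4.21e-13).

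Both members of the CA-repeat binding pair fell. Hnrnpll was at 0.710 and 0.932 FPKM in the KO-labelled libraries, against 2.49 and 2.05 FPKM in the WT-labelled ones (log2 fold change -0.85, SE 0.14, limma adjusted p = 8.37e-08). Hnrnpl was at 11.2 and 10.1 FPKM in the KO-labelled libraries, against 25.2 and 16.8 FPKM in the WT-labelled ones (log2 fold change -0.89, SE 0.19, limma adjusted p = 4.77e-05). The Hnrnpl call was lost without WT-labelled replicate 1 (-0.61, limma adjusted p = 0.0812), in which the gene was highest, and Hnrnpll kept its call in all 4 fits. Ptprc, the gene whose exons they switch, had 58.8 and 83.3 FPKM in KO-labelled libraries, against 63.4 and 82.0 FPKM in WT-labelled ones, and these gene-level tables hold no exon values.

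The most abundant hnRNP genes did not pass the test. Hnrnpa2b1, which like Hnrnpa1 binds splicing silencers, was at 203 and 173 FPKM in the KO-labelled libraries, against 244 and 213 FPKM in the WT-labelled ones (log2 fold change -0.28, SE 0.23, limma adjusted p = 0.369). Hnrnpa1 was at 136 and 125 FPKM in the KO-labelled libraries, against 201 and 182 FPKM in the WT-labelled ones, just short of the threshold (log2 fold change -0.55, SE 0.23, limma adjusted p = 0.0522). The authors' deposited table gives it an adjusted p of 0.0255, edgeR gave 0.0466, and limma without KO-labelled replicate 1 gave 0.0487. Hnrnpk, a poly(C)-binding protein, was at 192 and 172 FPKM in the KO-labelled libraries, against 192 and 201 FPKM in the WT-labelled ones, and the genotypes overlapped (log2 fold change -0.11, SE 0.23, limma adjusted p = 0.748). Hnrnpf, which binds runs of G, was at 155 and 144 FPKM in the KO-labelled libraries, against 162 and 172 FPKM in the WT-labelled ones (log2 fold change -0.16, SE 0.23, limma adjusted p = 0.634), and 0 of the 4 members of the F and H group were called. In the A and B group the less abundant Hnrnpa0 (-1.13) and Hnrnpa3 (-0.73) were called along with Hnrnpab.

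The remaining hnRNP calls were mostly at low levels. Hnrnpa0 was at 5.53 and 5.32 FPKM in the KO-labelled libraries, against 15.1 and 11.3 FPKM in the WT-labelled ones (log2 fold change -1.13, SE 0.18, limma adjusted p = 1.23e-08). Hnrnpa3 was at 4.58 and 5.09 FPKM in the KO-labelled libraries, against 9.85 and 7.69 FPKM in the WT-labelled ones (log2 fold change -0.73, SE 0.17, limma adjusted p = 0.000242). Hnrnpul1 was at 4.63 and 5.02 FPKM in the KO-labelled libraries, against 9.86 and 10.3 FPKM in the WT-labelled ones (limma adjusted p = 2.39e-06). Hnrnpul2 was at 0.931 and 0.817 FPKM in the KO-labelled libraries, against 3.17 and 2.81 FPKM in the WT-labelled ones (limma adjusted p = 6.00e-12). In all 4 genes both KO-labelled libraries were below both WT-labelled ones, and each kept its call in the 4 fits with a library left out. Hnrnpdl, a relative of Hnrnpd, was at 31.1 and 31.4 FPKM in the KO-labelled libraries, against 48.01 and 46.7 FPKM in the WT-labelled ones (log2 fold change -0.58, SE 0.21, limma adjusted p = 0.0228). Further genes without a call had estimates of -0.40 for Hnrnph1, -0.35 for Hnrnpc, which binds runs of U, -0.30 for Hnrnph3, -0.12 for Hnrnpr, -0.04 for Hnrnpm and 0.06 for Hnrnph2. Hnrnpm was at 56.4 and 45.3 FPKM in the KO-labelled libraries, against 49.6 and 54.4 FPKM in the WT-labelled ones, and Hnrnph2 at 30.7 and 27.3 FPKM in the KO-labelled libraries, against 26.00 and 29.6 FPKM in the WT-labelled ones, with overlapping genotypes in both.

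The hnRNP calls lay mostly at the lower levels. Level here is the mean over KO-labelled and WT-labelled libraries, so a drop under the KO label itself moves a gene down. Of its 10 members with the higher mean FPKM, at 18.7 to 208 FPKM, 1 (Hnrnpdl) was called lower, with a median log2 fold change of -0.29. Of the 10 at lower levels, at 1.55 to 17.96 FPKM, 9 were called, with a median of -1.01, and the exception was Hnrnpr. Over all tested genes, the share called lower was 32.7% above and 29.9% at or below 34.3 FPKM, the middle level of the 61 tested members, whereas 12 of 30 members above that level and 24 of 31 (77.4%) at or below it were called. Both splits were made after the values were seen and have no test. No share of all tested genes was taken at the hnRNP cut of 18.35 FPKM.

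Of the 10 SR protein genes, 6 were called lower, and their median log2 fold change was -0.52. Srsf1, the first SR protein described and a factor in constitutive and alternative splicing, was at 6.77 and 6.97 FPKM in the KO-labelled libraries, against 24.9 and 20.9 FPKM in the WT-labelled ones (log2 fold change -1.60, SE 0.19, limma adjusted p = 6.22e-15). Srsf9, its nearest relative in the family, was at 3.04 and 1.90 FPKM in the KO-labelled libraries, against 7.79 and 6.47 FPKM in the WT-labelled ones (log2 fold change -1.24, SE 0.16, limma adjusted p = 3.32e-12). These were the 2 SR protein genes that stayed called after centring on the median gene and the 2 that stayed called without WT-labelled replicate 1. Srsf2, also known as SC35, was at 19.7 and 18.4 FPKM in the KO-labelled libraries, against 37.6 and 28.03 FPKM in the WT-labelled ones (log2 fold change -0.74, SE 0.20, limma adjusted p = 0.00193), and it lost the call without WT-labelled replicate 1 (-0.54, limma adjusted p = 0.219). Srsf11 was at 15.9 and 17.98 FPKM in the KO-labelled libraries, against 25.1 and 26.00 FPKM in the WT-labelled ones (log2 fold change -0.57, SE 0.20, limma adjusted p = 0.0188), a call that 3 of the 4 fits with a library left out did not give, namely those without KO-labelled replicate 1 and without either WT-labelled replicate (limma adjusted p of 0.106 to 0.148).

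Srsf3, the smallest SR protein and an mRNA export adaptor, was at 52.02 and 49.4 FPKM in the KO-labelled libraries, against 81.3 and 69.5 FPKM in the WT-labelled ones (log2 fold change -0.56, SE 0.22, limma adjusted p = 0.0372). That call and the one of Srsf10 (-0.49, limma adjusted p = 0.048) were lost without any 1 library. The remaining SR protein genes of high level were not called. Srsf7, the most abundant, was at 109.6 and 94.1 FPKM in the KO-labelled libraries, against 136 and 122 FPKM in the WT-labelled ones (log2 fold change -0.34, SE 0.23, limma adjusted p = 0.256). Srsf5 was at 74.3 and 70.5 FPKM in the KO-labelled libraries, against 101 and 86.05 FPKM in the WT-labelled ones, and Srsf6 at 48.9 and 30.2 FPKM in the KO-labelled libraries, against 50.1 and 50.8 FPKM in the WT-labelled ones. Srsf6 was called without KO-labelled replicate 1 (-0.72, limma adjusted p = 0.0140), the one of its libraries that lay close to the WT-labelled ones. Srsf4 had the only positive estimate of the family, 0.17, and its genotypes overlapped; it was called higher after centring on the median gene (0.42, limma adjusted p = 0.0494).

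The estimates of the Sm and U snRNP genes spanned a narrow range. Of 11 tested members 8 were called lower, all 11 had KO-labelled values below the WT-labelled ones, and the log2 fold changes ran between -0.86 and -0.34 (median -0.61). Of the 7 genes of the Sm ring itself 5 were called, Snrpe, Snrpf, Snrpg, Snrpd1 and Snrpd2. Snrpe was at 125 and 99.9 FPKM in the KO-labelled libraries, against 231 and 180.4 FPKM in the WT-labelled ones (log2 fold change -0.86, SE 0.23, limma adjusted p = 0.00128). Snrpf was at 74.02 and 58.5 FPKM in the KO-labelled libraries, against 125 and 105 FPKM in the WT-labelled ones (log2 fold change -0.79, SE 0.23, limma adjusted p = 0.00279). Snrpg was at 119 and 79.7 FPKM in the KO-labelled libraries, against 193 and 143 FPKM in the WT-labelled ones (log2 fold change -0.76, SE 0.23, limma adjusted p = 0.00473). In each of these 3 the WT-labelled replicate 1 was the highest library and the KO-labelled replicate 2 the lowest. Snrpb, which encodes SmB and had the highest mean FPKM of all members, was at 373 and 286 FPKM in the KO-labelled libraries, against 439.8 and 426 FPKM in the WT-labelled ones and was not called (log2 fold change -0.40, SE 0.24, limma adjusted p = 0.182).

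Of the proteins that mark one snRNP, the U2-specific Snrpb2 and Snrpa1 were both called (-0.84 and -0.57), and of the U1-specific pair Snrpc was (-0.55) and Snrpa was not (-0.39). Snrpb2 was at 25.4 and 20.6 FPKM in the KO-labelled libraries, against 46.2 and 37.7 FPKM in the WT-labelled ones (limma adjusted p = 0.000515). Snrpa was at 77.3 and 64.4 FPKM in the KO-labelled libraries, against 95.6 and 89.5 FPKM in the WT-labelled ones (limma adjusted p = 0.179). Without WT-labelled replicate 1, 0 of the 11 genes were called, their estimates remaining negative; 3 were called without KO-labelled replicate 2, 4 without WT-labelled replicate 2 and 8 without KO-labelled replicate 1. After centring on the median gene 2 were called, Snrpe and Snrpb2. Snrpn, the imprinted neuronal Sm gene, was under the filter, at 0.410 and 0.199 FPKM in the KO-labelled libraries, against 0.311 and 0.231 FPKM in the WT-labelled ones.

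The remaining tested genes were 3 of the Sm ring and the U2-specific Snrpa1 and U1-specific Snrpc. Snrpd1 was at 64.2 and 52.3 FPKM in the KO-labelled libraries, against 114 and 85.99 FPKM in the WT-labelled ones (log2 fold change -0.76, SE 0.22, limma adjusted p = 0.00386). Snrpd2 was at 48.6 and 36.3 FPKM in the KO-labelled libraries, against 71.8 and 58.5 FPKM in the WT-labelled ones (log2 fold change -0.61, SE 0.22, limma adjusted p = 0.0191). Snrpd3 was at 19.5 and 15.9 FPKM in the KO-labelled libraries, against 25.8 and 19.9 FPKM in the WT-labelled ones and was not called (log2 fold change -0.34, SE 0.20, limma adjusted p = 0.18). Snrpa1 was at 33.4 and 28.7 FPKM in the KO-labelled libraries, against 50.03 and 43.3 FPKM in the WT-labelled ones (limma adjusted p = 0.0259). Snrpc was at 17.7 and 14.3 FPKM in the KO-labelled libraries, against 24.7 and 22.8 FPKM in the WT-labelled ones (limma adjusted p = 0.0227). In none of these 5 genes did the genotypes overlap.

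SF3 genes had the smallest share of calls. Of 9 tested members 3 were called lower and the median log2 fold change was -0.19, close to the -0.24 of all tested genes. The called members were Sf3b6, the small subunit also called p14 that sits at the branch point, Sf3b5 and Sf3a2. Sf3b6 was at 34.3 and 28.02 FPKM in the KO-labelled libraries, against 60.2 and 47.9 FPKM in the WT-labelled ones (log2 fold change -0.77, SE 0.21, limma adjusted p = 0.00202). Sf3b5 was at 30.7 and 22.5 FPKM in the KO-labelled libraries, against 44.3 and 39.5 FPKM in the WT-labelled ones (log2 fold change -0.65, SE 0.21, limma adjusted p = 0.00927). Sf3a2 was at 9.22 and 10.1 FPKM in the KO-labelled libraries, against 11.4 and 16.3 FPKM in the WT-labelled ones (log2 fold change -0.47, SE 0.19, limma adjusted p = 0.0415). Sf3b6 lost the call without WT-labelled replicate 1 (-0.61, limma adjusted p = 0.200). Sf3b5 kept it only without KO-labelled replicate 1 (-0.86, limma adjusted p = 0.00238) and Sf3a2 only without WT-labelled replicate 1 (-0.71, limma adjusted p = 0.0296), and Sf3a2 was not called by the authors' deposited table or by edgeR.

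The more abundant SF3 genes did not pass the test, nor did Sf3a1 (0.16), whose genotypes overlapped. Sf3b1, the subunit that clamps the branch point and is recurrently mutated in blood cancers, was at 52.97 and 56.6 FPKM in the KO-labelled libraries, against 59.04 and 66.7 FPKM in the WT-labelled ones (log2 fold change -0.19, SE 0.22, limma adjusted p = 0.531). Sf3b2 was at 73.1 and 69.3 FPKM in the KO-labelled libraries, against 59.8 and 72.2 FPKM in the WT-labelled ones, and Sf3a3 was at 73.9 and 57.5 FPKM in the KO-labelled libraries, against 69.6 and 68.1 FPKM in the WT-labelled ones. Sf3b4 was at 90.4 and 78.5 FPKM in the KO-labelled libraries, against 95.8 and 98.7 FPKM in the WT-labelled ones. The limma adjusted p of these 3 was at least 0.517, and the genotypes overlapped in Sf3b2 and Sf3a3. Sf3b3, which pairs with Sf3b1 in the SF3b core, was the only member with both KO-labelled libraries above both WT-labelled ones, at 47.5 and 55.3 FPKM in the KO-labelled libraries, against 28.9 and 45.6 FPKM in the WT-labelled ones (log2 fold change 0.48, SE 0.21, limma adjusted p = 0.0675). This gene was called higher after centring on the median gene (0.73, limma adjusted p = 0.00602), by edgeR on recovered reads (0.57, adjusted p = 0.0343) and without KO-labelled replicate 1 (0.59, limma adjusted p = 0.0472), and not by the authors' deposited table (0.53, adjusted p = 0.0539).

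Of the 11 tested LSm genes 9 were called lower, the largest share of the 5 families, with a median log2 fold change of -0.61. Lsm14a, a P-body protein that represses translation, was at 3.58 and 2.77 FPKM in the KO-labelled libraries, against 10.5 and 9.15 FPKM in the WT-labelled ones (log2 fold change -1.38, SE 0.17, limma adjusted p = 8.13e-14). Lsm5, of both LSm rings, was at 40.8 and 36.6 FPKM in the KO-labelled libraries, against 99.99 and 71.9 FPKM in the WT-labelled ones (log2 fold change -1.11, SE 0.22, limma adjusted p = 5.76e-06). These were the 2 LSm calls that held in all 4 fits with a library left out. Lsm8, which defines the nuclear ring on U6, was at 16.4 and 12.6 FPKM in the KO-labelled libraries, against 29.6 and 22.8 FPKM in the WT-labelled ones (log2 fold change -0.81, SE 0.20, limma adjusted p = 0.000434), and its call was lost without WT-labelled replicate 1 (-0.63, limma adjusted p = 0.09996). Lsm1, which defines the cytoplasmic ring of mRNA decay, was at 22.1 and 17.1 FPKM in the KO-labelled libraries, against 32.4 and 25.9 FPKM in the WT-labelled ones (log2 fold change -0.55, SE 0.20, limma adjusted p = 0.024).

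Of the shared ring members, Lsm2 was at 30.4 and 19.9 FPKM in the KO-labelled libraries, against 45.6 and 35.9 FPKM in the WT-labelled ones (-0.70, limma adjusted p = 0.0048). Lsm3 was at 31.4 and 26.5 FPKM in the KO-labelled libraries, against 50.3 and 38.9 FPKM in the WT-labelled ones (-0.60, limma adjusted p = 0.0177). Lsm7 was at 31.1 and 20.6 FPKM in the KO-labelled libraries, against 39.4 and 33.04 FPKM in the WT-labelled ones and just missed the threshold (log2 fold change -0.50, SE 0.21, limma adjusted p = 0.0526). Lsm10, a part of the U7 snRNP that matures histone mRNA, was at 33.6 and 25.4 FPKM in the KO-labelled libraries, against 43.7 and 37.9 FPKM in the WT-labelled ones (-0.46, limma adjusted p = 0.0764). Without KO-labelled replicate 1 both Lsm7 (-0.78, limma adjusted p = 0.00631) and Lsm10 (-0.66, limma adjusted p = 0.0248) were called and 10 LSm genes in all, against 4 without KO-labelled replicate 2, 4 without WT-labelled replicate 2 and 2 without WT-labelled replicate 1. Lsm1 and Lsm3 kept the call only without KO-labelled replicate 1, and Lsm2 also without WT-labelled replicate 2. Lsm11 and Lsm14b were under the filter, with means of 0.949 and 0.573 FPKM.

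Lsm6, the last shared ring member, was at 26.9 and 20.6 FPKM in the KO-labelled libraries, against 39.6 and 33.8 FPKM in the WT-labelled ones (log2 fold change -0.62, SE 0.21, limma adjusted p = 0.0132). Lsm12, an LSm-domain protein outside the rings, was at 22.8 and 19.96 FPKM in the KO-labelled libraries, against 35.9 and 30.7 FPKM in the WT-labelled ones (log2 fold change -0.61, SE 0.21, limma adjusted p = 0.0127). Both were called and had no overlap between genotypes. Of the 7 genes of the nuclear ring, Lsm2 to Lsm8, 6 were called lower, with a median log2 fold change of -0.62, and so were 6 of the 7 genes of the cytoplasmic ring; the rings share all but 1 gene each, the uncalled gene of both was Lsm7, and the calls include Lsm4.

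One LSm call came from a single library. Lsm4 was at 38.01 and 132 FPKM in the KO-labelled libraries, against 110.3 and 108 FPKM in the WT-labelled ones, so that 1 KO-labelled library stood far below the other 3 and the second stood above both WT-labelled ones. limma called it lower (log2 fold change -0.61, SE 0.23, limma adjusted p = 0.024), with an SE taken from genes at its level. Without KO-labelled replicate 1 the estimate was 0.27 (limma adjusted p = 0.429), edgeR gave an adjusted p of 0.577, and the authors' deposited table gives one of 0.836. Lsm4 was the only one of the 36 called members whose genotypes overlapped.

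**Figure D2:**
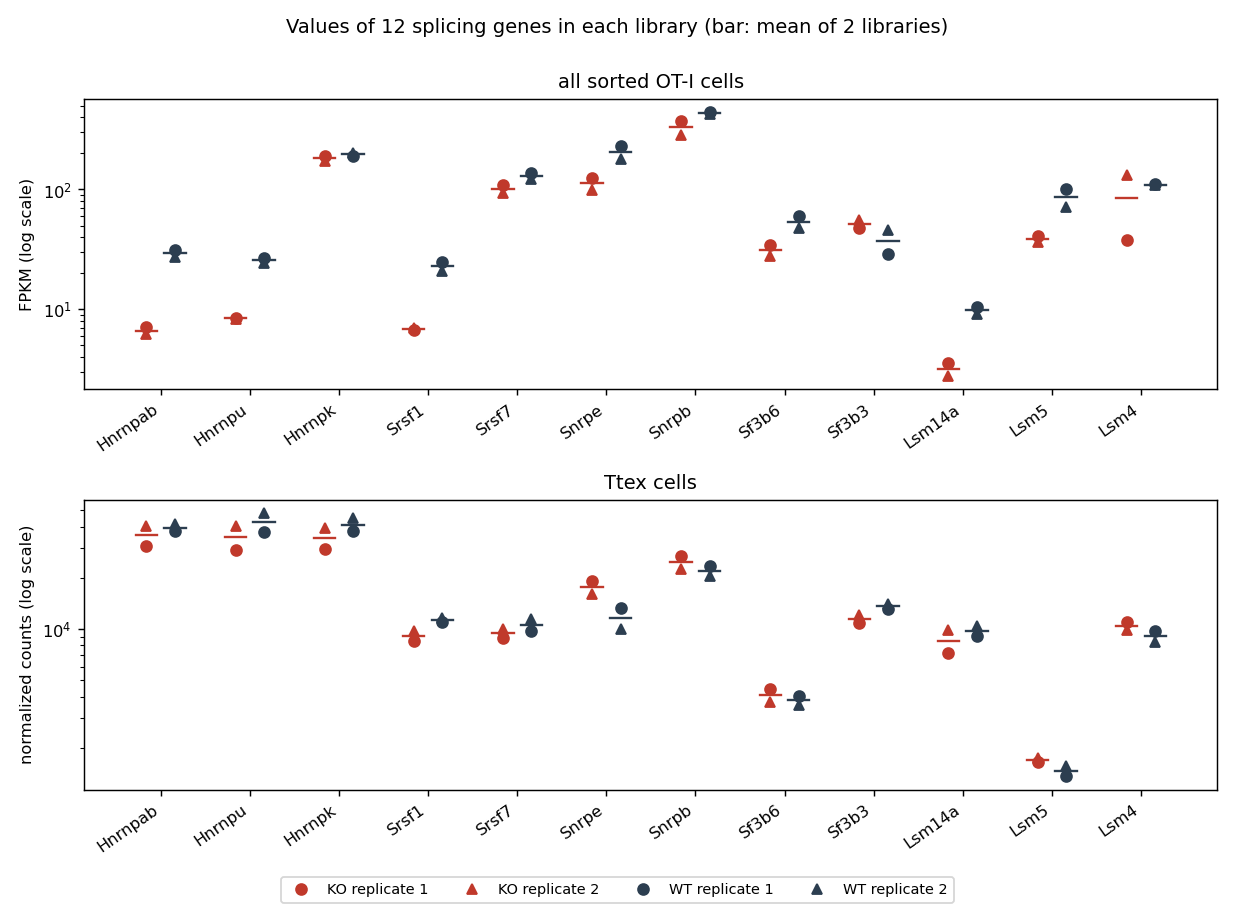
Values of 12 members in each library, KO-labelled left of WT-labelled, on log axes: FPKM in bulk OT-I cells (top) and normalized counts in Ttex cells (bottom); bars are means of 2 libraries. In the top panel Hnrnpab, Hnrnpu, Srsf1, Lsm14a and Lsm5 have KO-labelled points below the WT-labelled ones, Hnrnpk overlaps, and Lsm4 has 1 KO-labelled point at 38.0 FPKM and another at 132 FPKM. In the bottom panel Snrpe has KO-labelled points above the WT-labelled ones.

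Several of the genes that fell most in bulk OT-I cells had far more reads in the Ttex table. The tables were normalized separately, so reads were scaled to the same total per library over the genes both hold (RPM), with no test. In WT-labelled libraries Hnrnpab had 780 RPM in Ttex cells and 79.8 in bulk OT-I cells, a ratio of 9.78, Hnrnpa3 676 and 46.3 (14.6), and Hnrnpul2 182 and 20.8 (8.75). Per length, Hnrnpab ranked first of the 64 members in the Ttex table, although its mean of 17.96 FPKM was below those of Snrpb (381 FPKM) and Hnrnpa2b1 (208 FPKM) in bulk OT-I cells. Of 13 tested members with a log2 ratio above 1, 12 were called lower in bulk OT-I cells (median log2 fold change -0.93), and Srsf4 was the exception. Of the other 48, 24 were called (median -0.52). Over all genes tested in both tables, 65.8% of those above a log2 ratio of 1 were called lower and 25.1% of the rest. Spearman's rho between the ratio and the log2 fold change in bulk OT-I cells was -0.31 over 61 members and -0.17 over 8945 genes, which share libraries and depth.

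**Figure D3:**
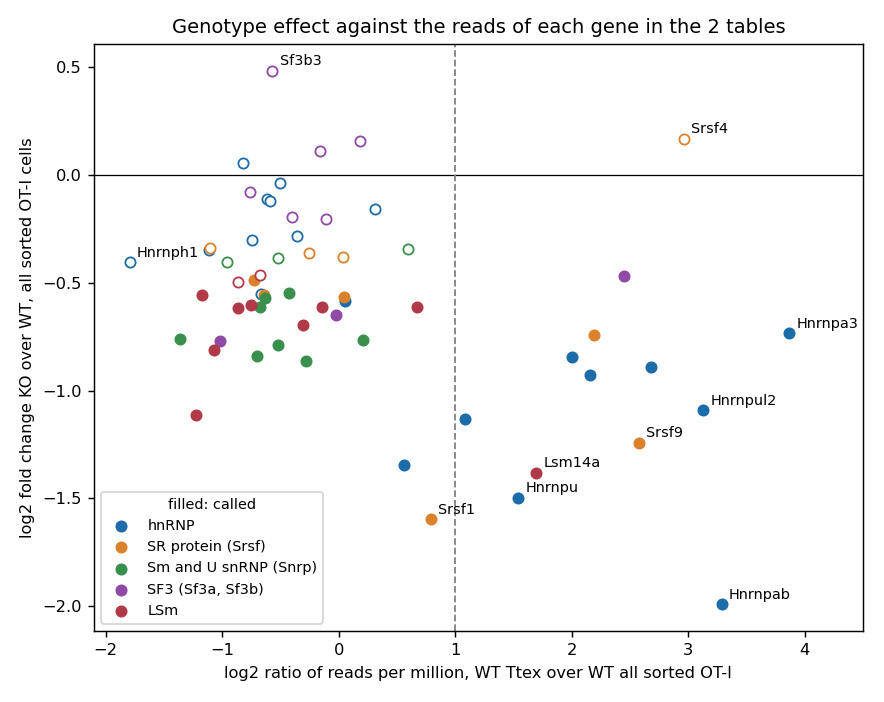
Log2 fold change, KO-labelled over WT-labelled, in bulk OT-I cells against the log2 ratio of scaled reads in WT-labelled Ttex over WT-labelled bulk OT-I libraries, for 61 members coloured by family and filled where called. Right of the dashed line, at a log2 ratio of 1, 12 of 13 points are filled, and Srsf4 is the open one.

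Some of these genes have near-identical copies. Snrpert in the Ttex table is a copy of Snrpe and Hnrnpa1l2-ps one of Hnrnpa1, at 36.5 to 50.9 and 10.8 to 21.3 normalized counts, and how reads that match several places were counted is not stated for either table. The levels of genes with such copies are therefore uncertain, and the part that counting played in the ratios above was not tested.

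In Ttex cells none of the 64 members was called by limma without a replicate block, where 0.00796% of 12559 tested genes were called lower and 0.0159% higher. At an unadjusted p under 0.05, limma found 9 members lower and 7 higher, with 14.2% of all tested genes at such a p in either direction. edgeR on recovered reads called 0, with 4 lower and 7 higher at an unadjusted p under 0.05, and DESeq2 called 1 member, Snrpe, higher (log2 fold change 0.65, adjusted p = 0.0342). With the replicate number as a block, limma called 8 members lower, all of them hnRNP genes, and 4 higher, Snrpe, Snrpg, Snrpd2 and Lsm3, where it called 3.11% and 3.61% of all tested genes; the labels do not tie the numbers to animals. The estimates without the block sorted by family. The median log2 fold change was -0.29 for hnRNP genes, with 19 of 20 negative, and -0.17 for SR protein genes, with 10 of 10 negative. It was 0.20 for Snrp genes, with 12 of 12 positive, 0.17 for LSm genes, with 11 of 13 positive, and -0.03 for SF3 genes, while the median of all tested genes was -0.06. Of all 12559 tested genes, 5354 had a positive and 7205 a negative estimate. KO-labelled values lay below the WT-labelled ones without overlap in 20 members and above them in 13, against 28.2% and 19.9% of all tested genes.

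Snrpe had the second highest estimate of the Snrp genes in Ttex cells, at 19162 and 16090.2 normalized counts in the KO-labelled pair, against 13242 and 9999 in the WT-labelled ones (log2 fold change 0.61, SE 0.17, limma adjusted p = 0.262). Snrpg was at 25901 and 19514 normalized counts in the KO-labelled pair, against 18759 and 11969.6 in the WT-labelled ones (log2 fold change 0.59, SE 0.24, limma adjusted p = 0.349), with the genotypes separated only narrowly, and Snrpf at 4413 and 4411 normalized counts in the KO-labelled pair, against 3288 and 3586 in the WT-labelled ones (log2 fold change 0.36, SE 0.12, limma adjusted p = 0.294). Lsm7 was at 2218 and 2268 normalized counts in the KO-labelled pair, against 1659.7 and 1525 in the WT-labelled ones (log2 fold change 0.50, SE 0.14, limma adjusted p = 0.262). Snrpa, at 10199 and 8983 normalized counts in the KO-labelled pair, against 10023 and 9048 in the WT-labelled ones, had the smallest estimate of its family (log2 fold change 0.01, SE 0.13, limma adjusted p = 0.984). Snrpn had the largest ratio, at 49.6 and 40.6 normalized counts in the KO-labelled pair, against 9.42 and 14.1 in the WT-labelled ones (log2 fold change 1.87, SE 0.61, limma adjusted p = 0.29), but at counts close to the filter of 10.

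On the hnRNP side Hnrnpa3 was at 22156 and 25444 normalized counts in the KO-labelled pair, against 32273 and 36352 in the WT-labelled ones (log2 fold change -0.53, SE 0.14, limma adjusted p = 0.255). Hnrnph2 was at 2428 and 2481 normalized counts in the KO-labelled pair, against 3288 and 3549 in the WT-labelled ones (log2 fold change -0.48, SE 0.13, limma adjusted p = 0.255). Hnrnpll was at 3651 and 3960.4 normalized counts in the KO-labelled pair, against 4968 and 5605 in the WT-labelled ones (log2 fold change -0.47, SE 0.13, limma adjusted p = 0.258). In these 3 genes both KO-labelled libraries lay below both WT-labelled ones. Hnrnpd had the only positive estimate of its family, 0.09, with KO-labelled libraries at 4227 and 7443 normalized counts on either side of the WT-labelled ones at 4767 and 5819. Hnrnpab, so much lower in bulk OT-I cells, was at 30960.5 and 40223 normalized counts in the KO-labelled pair, against 37569 and 41695 in the WT-labelled ones and overlapped (log2 fold change -0.17, SE 0.17, limma adjusted p = 0.668). In the SR protein family Srsf1 had the lowest estimate, at 8515 and 9702 normalized counts in the KO-labelled pair, against 10938 and 11614 in the WT-labelled ones (log2 fold change -0.31, SE 0.12, limma adjusted p = 0.34), and Srsf3 the highest, -0.04. SF3 estimates ran between -0.25 for Sf3b3 and 0.28 for Sf3b5, and Lsm14b, at 1632 and 1792 normalized counts in the KO-labelled pair, against 2269 and 2228 in the WT-labelled ones, was the lowest LSm gene (log2 fold change -0.39, SE 0.14, limma adjusted p = 0.303).

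The families differ in transcript length, and length moved with the estimates in Ttex cells. The longest coding transcript in GENCODE M21 had a median of 1204.5 bases in Snrp and 1129 bases in LSm genes, and of 2908.5, 2510.5 and 3222 bases in hnRNP, SR protein and SF3 genes. Across genes, Spearman's rho between this length and the Ttex log2 fold change was -0.66 over 61 members and -0.36 over 8936 genes, and in bulk OT-I cells 0.14 and 0.17; genes are not independent replicates. The shortest decile of all genes had a median log2 fold change of 0.24 in Ttex cells and -0.57 in bulk OT-I cells. Relative to genes of their own length decile, the family medians in Ttex cells were -0.16 for hnRNP, -0.03 for SR protein, 0.10 for Snrp, 0.03 for SF3 and 0.05 for LSm genes. In bulk OT-I cells they were -0.40 for hnRNP, -0.44 for SR protein, -0.19 for Snrp, 0.03 for SF3 and -0.24 for LSm genes. In both populations the hnRNP, SR protein, Snrp and LSm medians thus lay closer to 0 beside genes of their length than as measured. In bulk OT-I cells the median of every length decile was below 0.

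**Figure D4:**
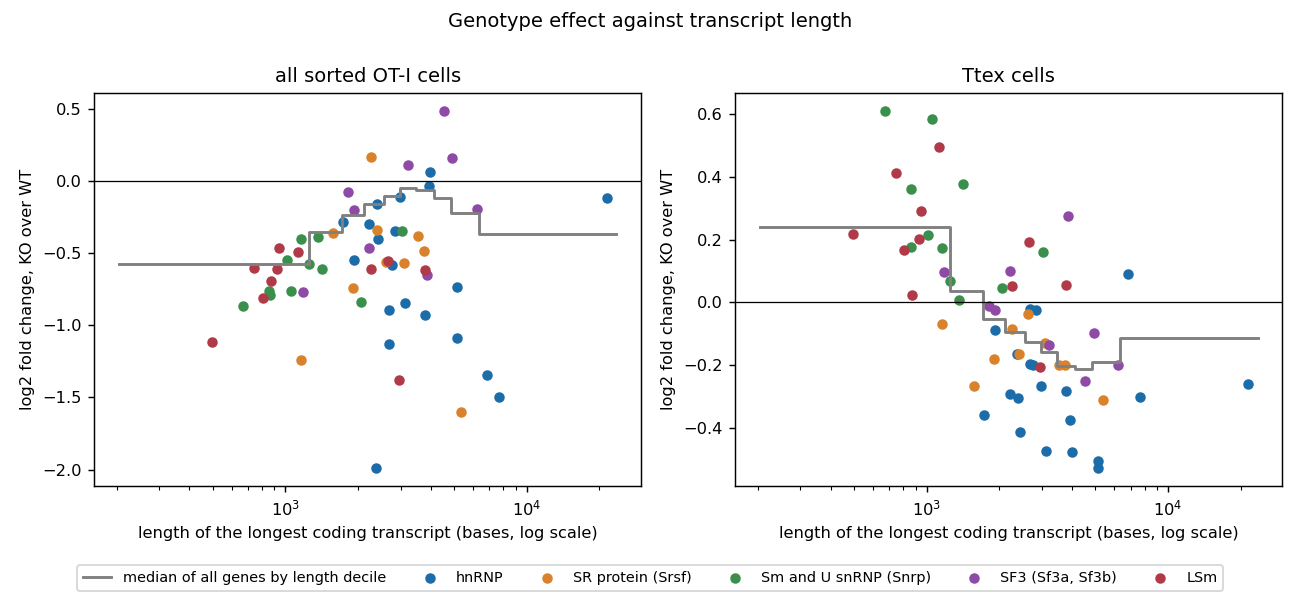
Log2 fold change, KO-labelled over WT-labelled, against the length of the longest coding transcript (log scale) in bulk OT-I cells (left) and Ttex cells (right), for 61 members coloured by family; the grey steps are medians of all genes by length decile. In the right panel the steps start at 0.24 for the shortest genes, and Snrp and LSm genes lie at short lengths around them; in the left panel the shortest genes have a median of -0.57.

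The genotype effect differed between the populations for 17 of 61 members, all with a higher (less negative or more positive) log2 fold change in Ttex cells than in bulk OT-I cells (limma interaction over 8 libraries). In that direction 10.4% of 8958 tested genes were called, and 0.982% in the other. The median difference, Ttex minus bulk OT-I, was 0.58 for the members and 0.17 for all tested genes. By family, 4 of 20 hnRNP, 1 of 10 SR protein, 6 of 11 Snrp, 1 of 9 SF3 and 5 of 11 LSm genes were called. In all 11 Snrp genes and 10 of 11 LSm genes the estimate was negative in bulk OT-I cells and positive in Ttex cells, while in 18 of 20 hnRNP and 9 of 10 SR protein genes it was negative in both. These pairs of signs were not counted over all genes. Taken singly, 7183 of 9574 tested genes were negative in bulk OT-I cells and 5354 of 12559 positive in Ttex cells.

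The difference was 1.83 for Hnrnpab (SE 0.24, limma adjusted p = 0.00108), 1.47 for Snrpe (SE 0.28, limma adjusted p = 0.00862), 1.33 for Lsm5 (SE 0.25, limma adjusted p = 0.00741) and 1.29 for Srsf1 (SE 0.22, limma adjusted p = 0.0042). Hnrnpab, Srsf1 and Lsm5 kept the call in all 8 fits that left out a library. For Hnrnpab and Srsf1 the Ttex estimate was also negative, and smaller in size than that of bulk OT-I cells. For Snrpe and Lsm5 the signs were opposite. The call of Snrpe was lost without KO-labelled replicate 2 or WT-labelled replicate 1 of bulk OT-I cells, or without WT-labelled replicate 2 of Ttex cells (limma adjusted p of 0.0508 to 0.0654). The number of calls was 3 without WT-labelled replicate 1 and 4 without KO-labelled replicate 2 of bulk OT-I cells, and 9 and 8 without WT-labelled replicates 1 and 2 of Ttex cells. Of all tested genes those fits called 1.59%, 2.11%, 5.59% and 2.97% in this direction. edgeR on recovered reads called 11 members in this direction and 1, Hnrnph2, in the other, where it called 6.87% and 2.02% of all genes. Of the members called by limma, edgeR did not call Snrpg, Snrpd2, Snrpd1, Snrpb2, Sf3b6, Lsm7 and Lsm8. It called Hnrnpul2 (1.14, edgeR adjusted p = 0.0364), which limma did not.

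Of the other called genes, Hnrnpd differed by 1.44 (SE 0.31), Hnrnpu by 1.196 (SE 0.27) and Hnrnpa0 by 1.11 (SE 0.26), with limma adjusted p of 0.0156, 0.0169 and 0.0199. The Sm genes Snrpg and Snrpf differed by 1.35 and 1.15 (limma adjusted p = 0.0326 and 0.0113). Lsm14a differed by 1.18, Lsm3 by 1.01 and Lsm7 by 0.99, with limma adjusted p of 0.0144, 0.024 and 0.0314. In Ttex cells Lsm5 was at 1639 and 1733 normalized counts in the KO-labelled pair, against 1353 and 1555 in the WT-labelled ones (log2 fold change 0.22, SE 0.16, limma adjusted p = 0.537). Lsm3 was at 5047 and 4615 normalized counts in the KO-labelled pair, against 3997 and 3293 in the WT-labelled ones (log2 fold change 0.41, SE 0.14, limma adjusted p = 0.299). KO-labelled values of Lsm5 thus lay below the WT-labelled ones in bulk OT-I cells and above them in Ttex cells. Srsf9 missed the threshold for a difference (1.17, limma adjusted p = 0.0515). Summed over a family, the ratio of KO-labelled to WT-labelled normalized counts in Ttex cells was 0.828 for hnRNP, 0.892 for SR protein, 1.23 for Snrp, 0.949 for SF3 and 1.07 for LSm genes. Centring on the median gene left 8 of the 17 calls, those of Hnrnpab, Hnrnpu, Hnrnpd, Srsf1, Lsm14a, Lsm5, Snrpe and Snrpf, where 4.09% of all tested genes were called.

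**Figure D5:**
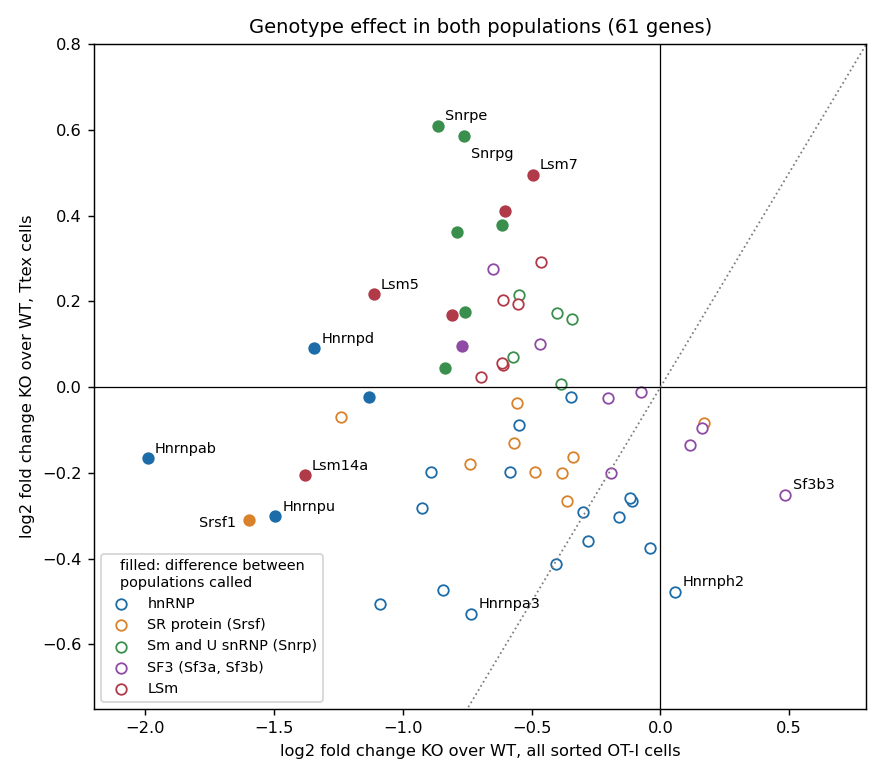
Log2 fold change, KO-labelled over WT-labelled, in Ttex cells (vertical) against bulk OT-I cells (horizontal) for 61 members coloured by family, filled where the difference between the populations was called; the dotted line marks equal values. The 17 filled points all lie above the dotted line, with Snrpe and Snrpg at the top and Hnrnpab at the far left.

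Other splicing genes, in lists chosen with earlier results of these data known, were counted in the same fit of bulk OT-I cells. Of 46 tested splicing regulators outside the 5 families 21 were called lower and 1, Rbm10 (0.53), higher (median log2 fold change -0.43). Those lowest were Sfpq (-1.64), a paraspeckle protein, Khdrbs1 (-1.37), the signalling-linked RNA-binding protein Sam68, and Khsrp (-1.22), a KH-domain protein of mRNA decay; their limma adjusted p was at most 4.25e-11. Of 60 tested core spliceosome and snRNP proteins 10 were called lower and 1, Dhx38 (0.60), higher (median -0.23), below the 30.4% of all tested genes, with Sart1 (-1.05), Magohb (-0.95) and Magoh (-0.86) lowest. Of 8 SR protein kinases 3 (37.5%) were called lower, Clk2 (-0.86), Dyrk1a (-0.81) and Prpf4b (-0.62). Lower calls went to 4 of 7 minor spliceosome genes (57.1%), led by Zcrb1 (-0.77). Among 14 snRNP assembly genes 3 were called lower, Gemin7 (-0.56), Tgs1 (-0.53) and Smn1 (-0.53). That share, 21.4%, was also below the 30.4% of all tested genes. In every fit that left out a library, the share called lower lay above that of all tested genes among regulators and below it among core genes. The shares of regulators, core genes and all tested genes were each lowest without WT-labelled replicate 1. Minor spliceosome calls were 0 without KO-labelled replicate 2 or WT-labelled replicate 1, and snRNP assembly calls 0 in these fits and without WT-labelled replicate 2. Centring on the median gene gave 13 lower and 2 higher calls among regulators, 3 lower and 6 higher among core genes, 2 lower among kinases, 1 lower among minor spliceosome genes, and 0 lower and 1 higher among snRNP assembly genes, where 11.9% and 10.7% of all tested genes were called. In Ttex cells limma called none of the listed genes.

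The 300-base promoter windows of RefSeq (GRCm38.p6, 250 bases before to 50 after each gene's start) were matched for 55 of the 64 members, 1 window a gene. The ETS core CCGGAAG, searched on both strands, stood in 17 of 55 windows (30.9%), against 9.12% of 27025 promoters of the same length, and in 6 of 7 SF3, 4 of 10 Snrp, 4 of 10 SR protein, 1 of 10 LSm and 2 of 18 hnRNP windows. It was in 9 of 29 windows (31.0%) of members called lower in bulk OT-I cells and in 8 of 23 (34.8%) of those tested and not called. The CCAAT box CCAAT stood in 49.1% of member windows and in 37.9% of all promoters, and the TATA box TATAAA in 10.9% and 14.2%. For the NRF1 motif the shares were 14.5% and 4.78%, for the YY1 motif AAGATGGCG 3.64% and 1.49%, for the SP GC box GGGCGG 72.7% and 35.9%, and for the palindromic CRE TGACGTCA 3.64% and 1.88%, all on both strands. GGGCGG can overlap other GC-rich motifs, and member windows were richer in CpG (median 24) than all promoters (median 7). The windows below are those of the gene with the lowest log2 fold change in each family in bulk OT-I cells, shown as the member of each family that moved most; capitals mark matches to the ETS core, YY1, NRF1, CCAAT and TATA motifs on either strand. They lie at chr11:51606832-51607131, minus strand (Hnrnpab), chr11:88047123-88047422, plus strand (Srsf1), chr1:133610231-133610530, minus strand (Snrpe), chr12:4817358-4817657, plus strand (Sf3b6) and chr7:34389656-34389955, minus strand (Lsm14a), and are printed 5′ to 3′ along the gene.
Hnrnpab: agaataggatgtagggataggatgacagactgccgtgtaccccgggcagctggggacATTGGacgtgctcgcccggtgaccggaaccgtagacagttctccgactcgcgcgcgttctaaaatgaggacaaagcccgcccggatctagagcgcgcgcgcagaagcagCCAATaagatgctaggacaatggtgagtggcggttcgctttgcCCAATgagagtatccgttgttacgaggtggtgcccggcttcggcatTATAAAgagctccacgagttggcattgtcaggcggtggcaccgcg
Srsf1: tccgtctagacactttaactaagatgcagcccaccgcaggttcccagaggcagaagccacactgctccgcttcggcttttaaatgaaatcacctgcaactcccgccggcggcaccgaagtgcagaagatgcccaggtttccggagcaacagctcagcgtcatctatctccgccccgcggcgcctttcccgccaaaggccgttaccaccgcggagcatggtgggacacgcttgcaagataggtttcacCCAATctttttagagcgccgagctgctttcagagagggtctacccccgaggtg
Snrpe: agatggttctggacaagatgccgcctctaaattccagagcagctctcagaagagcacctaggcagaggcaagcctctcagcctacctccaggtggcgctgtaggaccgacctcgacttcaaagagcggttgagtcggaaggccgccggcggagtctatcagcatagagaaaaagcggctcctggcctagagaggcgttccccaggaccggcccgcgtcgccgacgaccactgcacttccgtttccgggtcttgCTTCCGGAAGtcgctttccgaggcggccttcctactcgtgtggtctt
Sf3b6: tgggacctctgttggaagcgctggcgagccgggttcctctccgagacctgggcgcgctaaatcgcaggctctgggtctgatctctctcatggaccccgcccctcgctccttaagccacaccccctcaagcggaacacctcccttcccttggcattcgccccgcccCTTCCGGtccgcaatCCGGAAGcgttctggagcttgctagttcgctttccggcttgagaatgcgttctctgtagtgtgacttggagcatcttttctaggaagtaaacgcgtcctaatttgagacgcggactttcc
Lsm14a: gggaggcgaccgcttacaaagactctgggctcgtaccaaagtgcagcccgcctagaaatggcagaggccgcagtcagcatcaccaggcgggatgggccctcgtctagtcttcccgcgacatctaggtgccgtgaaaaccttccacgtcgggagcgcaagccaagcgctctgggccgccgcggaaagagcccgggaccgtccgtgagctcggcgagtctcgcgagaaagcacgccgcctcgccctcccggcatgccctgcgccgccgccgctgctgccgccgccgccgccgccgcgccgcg
The Sf3b6 window holds 2 ETS cores whose first bases lie at -85 and -70, counting the gene's first base as 1, the Snrpe window 2 overlapping ones at 4 and 7, the Hnrnpab window 3 CCAAT boxes and 1 TATA box, the Srsf1 window 1 CCAAT box and the Lsm14a window none of the 5 motifs. These matches are descriptions of letters and not of binding.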

How the data were processed

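Polyadenylated RNA of 8 libraries, 2 in each of 4 groups, was sequenced. For bulk OT-I cells the authors deposited values per library, whose headers name no unit and which were read as FPKM from the values themselves. Further columns hold the log2 fold changes, score (Wald statistic), p-values and mean normalized signal of their DESeq2 run, per the file headers. For Ttex cells the deposited values are a normalized signal. As the values show, it is each gene's count, to which 1 appears to have been added, over 1 size factor of its library. The submitters' processing notes name Bowtie2, RSEM, featureCounts, DESeq2, Trim Galore 0.4.4 and the build mm10, with no role; the counting of reads with several matches is not stated.

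Each table was tested with limma 3.58.1 (R 4.3.3) as limma-trend on log2(value + 1), without a block, for genes averaging 1 FPKM or 10 normalized counts or more, with Benjamini-Hochberg adjustment over all tested genes, two-sided, at 0.05. The difference between populations was the interaction term over all 8 libraries. The tables were normalized separately, so levels across them are descriptions. Whole reads were recovered from Ttex values (100% within 0.01 read) and, with GENCODE M21 exon lengths, from FPKM (98.3% to 98.5% within 0.1 read for genes with a mean under 1000 reads), and tested with edgeR 4.0.16 (quasi-likelihood) and DESeq2 1.42.0. Among Ttex values, 173 genes sat at exactly 1 step in all libraries, and 1 was subtracted from every recovered Ttex count before its use. The main limma fit and the edgeR fit of each table, and the limma interaction, were tested on simulated data. DESeq2, the edgeR interaction and the other limma settings, among them scalings, the replicate block and leaving out a library, were not.

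Named members were, in each family, the 4 with the highest mean in bulk OT-I cells, up to 4 called per direction and population (the largest and the smallest estimate where none was called), and all members with a called difference; further members were named after their values were seen. The members and lists were chosen with earlier results of these data known. The alternatives were other scalings, pseudocounts, filters, thresholds, tests, a replicate block and leaving out each library.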

Additional observations from a re-analysis of the deposited data

Results flagged for a closer look

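The genotype effect differed between the populations for 17 members, by the limma interaction term at an adjusted p under 0.05. All had a higher log2 fold change, KO-labelled over WT-labelled, in Ttex than in bulk OT-I cells, as did 10.4% of all tested genes. Among hnRNP genes the difference, Ttex minus bulk OT-I, was called for Hnrnpab (1.83), Hnrnpd (1.44), Hnrnpu (1.20) and Hnrnpa0 (1.11). In the SR protein family it was called for Srsf1 (1.29). Among Snrp genes it was called for Snrpe (1.47), Snrpg (1.35), Snrpf (1.15), Snrpd2 (0.99), Snrpd1 (0.93) and Snrpb2 (0.88). Of the SF3 genes it was called for Sf3b6 (0.87). LSm genes with the call were Lsm5 (1.33), Lsm14a (1.18), Lsm3 (1.01), Lsm7 (0.99) and Lsm8 (0.98). Of these members, edgeR on recovered reads did not call Snrpg, Snrpd2, Snrpd1, Snrpb2, Sf3b6, Lsm7 and Lsm8. Hnrnpab, Srsf1 and Lsm5 were called in every fit that left out a library, whereas the other 14 were not called in 2 or more of the 8 such fits. Markers of macrophages, melanoma and red blood cells also moved with the genotype label in these libraries, and their part in the differences was not tested. Groups of 2 libraries are too small for a check of single outlying libraries.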

How the results depend on the processing

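The 2 libraries a group limit the precision of every comparison, and counts near the filter (Snrpn, Hnrnpll) also by depth. In bulk OT-I cells the 36 lower calls became 17 after centring on the median gene, 17 with upper-quartile scaling and 23 at an adjusted p under 0.01, and 13 to 34 when 1 library was left out. The share of all tested genes called lower was 30.4% in the main fit, 11.9% after centring and 11.5% with upper-quartile scaling. It was 15.7% to 27.2% when 1 library of bulk OT-I cells was left out. Against 0 higher calls there, centring gave 2, and edgeR, limma without the trend, upper-quartile scaling, an adjusted p under 0.10 and the replicate block gave 1 each. Of all tested genes 2.45% were called higher in the main fit, 10.7% after centring and 11.8% with edgeR. The share was 2.16% without the trend, 6% with upper-quartile scaling and 3.41% with the block. No share of all tested genes, lower or higher, was taken at the thresholds of 0.01 and 0.10. In Ttex cells the replicate block gave 8 lower and 4 higher calls, against 3.11% and 3.61% of all tested genes, and DESeq2 1 higher, against 2.52%. The 17 calls for a higher effect in Ttex cells became 8 after centring, 11 with edgeR and 31 with the replicate block (4.09%, 6.87% and 19.3% of all tested genes), and 3 to 24 when 1 library was left out (9 without WT-labelled replicate 1 of Ttex cells); centring, edgeR and the block gave 1 call each for a lower effect, and leaving out a library 0 to 1. The replicate numbers are not tied to animals by the labels, so the block shows only what a shared number would do.

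Family medians in bulk OT-I cells moved with centring and upper-quartile scaling to -0.32 and -0.32 for hnRNP, -0.27 and -0.28 for SR protein, -0.36 and -0.37 for Snrp, -0.36 and -0.37 for LSm, and 0.057 and 0.054 for SF3 genes. In Ttex cells the SF3 median was 0.053 after centring, 0.049 with upper-quartile scaling and 0.024 with edgeR. When 1 library was left out of the Ttex fit, medians ran between -0.48 and -0.19 for hnRNP, -0.23 and -0.09 for SR protein, 0.21 and 0.33 for Snrp, -0.14 and -0.019 for SF3 and 0.031 and 0.21 for LSm genes. The Lsm4 estimate in bulk OT-I cells was -1.50 without KO-labelled replicate 2 and 0.27 without KO-labelled replicate 1. Of the other values of named members under an alternative, 986 kept direction and side of the threshold, 53 were uncalled under both and changed sign, 29 passed the threshold and 64 missed it. The causes were not tested. Same-numbered replicates deviated together with correlations of 0.299 in bulk OT-I and 0.134 in Ttex cells, over 2 pairs each.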
